A study of Mus musculus with 8 samples.

Results

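The amino acid and creatine transporter genes of mouse islets were described across islets with and without endocrine *Itgb1*, which encodes integrin β1, a receptor for extracellular matrix. Members were all rows of the gene count table whose symbol begins with Slc1a, Slc3a, Slc6a, Slc7a, Slc36a, Slc38a or Slc43a followed by a number, which gave 65 of 24091 genes. RNA-seq libraries had been made from islets of 6-week-old control mice, labelled wild-type, and of *Itgb1* ΔEndo/ΔEndo mice, labelled Ngn3-Cre, itgb1-/-, with 4 libraries of each on a C57BL/6 background. In the mutants a floxed *Itgb1* is deleted by Ngn3-Cre, which acts in endocrine progenitors, so that blood vessels, fibroblasts and other non-endocrine cells of the islet keep the gene. RNA of each library came from 10 to 30 isolated islets that had recovered overnight in culture. The labels do not say that each library is a separate mouse, and the study's own list of replicates counts fewer animals of each genotype for its RNA-seq than there are libraries here, so some libraries may share an animal. Here n counts libraries, and p-values measure the spread between libraries, which may in part be technical.

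Amino acids cross the plasma membrane and the lysosomal membrane through carrier proteins of several solute carrier families. The Slc1a family carries glutamate and small neutral amino acids, Slc6a carries creatine, taurine, glycine and neutral amino acids together with sodium, and Slc7a light chains pair with the heavy chains of the Slc3a family or, as the cationic amino acid transporters, act alone. Slc36a and Slc38a proteins carry small neutral amino acids and glutamine, and Slc43a carries large neutral amino acids. In islets, arginine and leucine are known secretagogues, glutamine and other amino acids support the growth of glucagon-producing α-cells, and creatine taken up through *Slc6a8* feeds the creatine kinase system that buffers ATP. *Slc38a5*, a sodium-coupled glutamine carrier, is known as a gene of α-cells that respond to high amino acid levels.

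Promoter sequences show the stretch upstream of members whose levels are described here. RefSeq sequences of build GRCm38.p6, from 250 bases before to 50 after each gene's start, were at hand for 47 members, 31 of them among the 42 with enough counts to be tested. Both strands were searched for TGATGNAA, the core of the amino acid response element through which ATF4 raises transport genes, and for ACGTG, the core of the hypoxia response element, in the first promoter listed for each gene. TGATGNAA stood in that of 3 of the 31 tested members (*Slc1a4*, *Slc7a7* and *Slc7a11*) and of 4.06% of all 27025 genes with an entry. ACGTG stood in that of 10 of the 31, *Slc38a5* among them, and of 19.7% of all genes. The promoters of *Slc38a5* (chrX:8271131-8271430, plus strand), *Slc1a4* (chr11:20332664-20332963, minus strand) and *Slc7a11* (chr3:50443564-50443863, minus strand) are printed 5′ to 3′ with the matched letters in capitals, the first because *Slc38a5* lay lower in every mutant and the others because they hold the amino acid response core.
Slc38a5: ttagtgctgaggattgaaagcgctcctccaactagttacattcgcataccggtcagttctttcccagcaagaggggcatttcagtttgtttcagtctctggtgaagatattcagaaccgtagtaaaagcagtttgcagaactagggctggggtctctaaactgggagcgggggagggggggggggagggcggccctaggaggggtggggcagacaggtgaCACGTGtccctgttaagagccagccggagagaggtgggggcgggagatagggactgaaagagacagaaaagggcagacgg
Slc1a4: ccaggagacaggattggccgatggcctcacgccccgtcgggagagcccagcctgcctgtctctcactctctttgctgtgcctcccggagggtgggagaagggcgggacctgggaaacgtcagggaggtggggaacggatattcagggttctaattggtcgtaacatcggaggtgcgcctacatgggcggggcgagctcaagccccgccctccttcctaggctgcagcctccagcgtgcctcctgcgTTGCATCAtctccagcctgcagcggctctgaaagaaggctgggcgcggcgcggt
Slc7a11: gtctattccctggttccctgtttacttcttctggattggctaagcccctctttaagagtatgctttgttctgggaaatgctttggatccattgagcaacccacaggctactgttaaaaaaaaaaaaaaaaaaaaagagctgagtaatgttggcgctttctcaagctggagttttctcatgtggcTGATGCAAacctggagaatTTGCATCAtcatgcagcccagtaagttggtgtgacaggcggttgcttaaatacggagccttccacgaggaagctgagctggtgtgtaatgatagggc
In *Slc38a5* the capitals mark CACGTG, which reads ACGTG on both strands. In *Slc1a4* they mark the core on the opposite strand, and in *Slc7a11* they mark 2 cores that face each other. A match to a short motif is a description of the letters and no evidence that a factor binds there. *Slc6a8*, *Slc1a5* and *Slc7a2* had no entry.

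Total gene counts ran from 35.1 to 67.6 M per library, and control 2, control 3 and mutant 3 held over 50 M. *Itgb1* was 315 to 432 CPM (counts scaled to library size with TMM factors) in the controls and 193 to 266 CPM in the mutants, with no overlap (reads were summed over the whole gene). Controls 2 and 3 stood apart from the other 6 libraries. The summed level of 8 β-cell markers was 120604 and 173200 CPM in them and 31702 to 49317 CPM in the others, and 10 acinar markers summed to 2922 and 9055 CPM against 16.7 to 645 CPM. *Xist* was abundant and *Ddx3y* at 0 in control 3 and mutant 3 alone, and *Slc38a5*, *Slc6a8*, *Slc6a14* and *Slc7a3* lie on the X chromosome. Among marker lists, at an unadjusted p under 0.05, 4 of 8 β-cell, 6 of 8 tested acinar, 2 of 5 δ- and PP-cell and 1 of 3 blood markers were lower, 2 of 6 duct, 1 of 7 leukocyte and 1 of 6 Schwann cell markers were higher, and 1 of 7 endothelial markers went each way. Over all genes 6.89% were lower and 6.4% higher at that p. In the 5 libraries described next, the β-cell and acinar medians changed sign, from -1.25 to 0.11 and from -3.69 to 1.02 on the log2 scale. Still, 2 of 8 β-cell markers were lower and 1 higher at that p there, and 0 acinar markers passed it either way. Over all genes 10.6% were lower and 12.7% higher in those 5 libraries. Values for the 5 libraries of under 50 M counts (controls 1 and 4, mutants 1, 2 and 4), in all of which *Xist* was low, and for the 6 libraries without controls 2 and 3, a comparison chosen after seeing the data, are therefore given beside results that they move.

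Members spanned more than 3 orders of magnitude in level per gene length. The most abundant was *Slc3a2*, the heavy chain shared by the large neutral amino acid and cystine exchangers, at a mean of 177 CPM per kb, followed by its partner *Slc7a5* at 155 CPM per kb. *Slc7a14*, a lysosomal relative of the cationic amino acid transporters, had 101 CPM per kb, the system A carriers *Slc38a4* and *Slc38a2* had 95.7 and 77.5, the taurine transporter *Slc6a6* had 65.1, and the arginine and lysine transporters *Slc7a2* and *Slc7a1* had 51.3 and 39.8. *Slc6a8* had 12.6 CPM per kb in controls and 23.6 in mutants. At the low end stood *Slc43a1* at 0.0654 CPM per kb and the glial glutamate transporters *Slc1a2* and *Slc1a3* at 0.0799 and 0.0839. The libraries of *Slc3a2* and *Slc7a5* overlap in this measure, so their order is not settled. *Slc7a5*, *Slc7a1* and *Slc38a2* were picked for their level after it was seen.

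**Figure D1:**
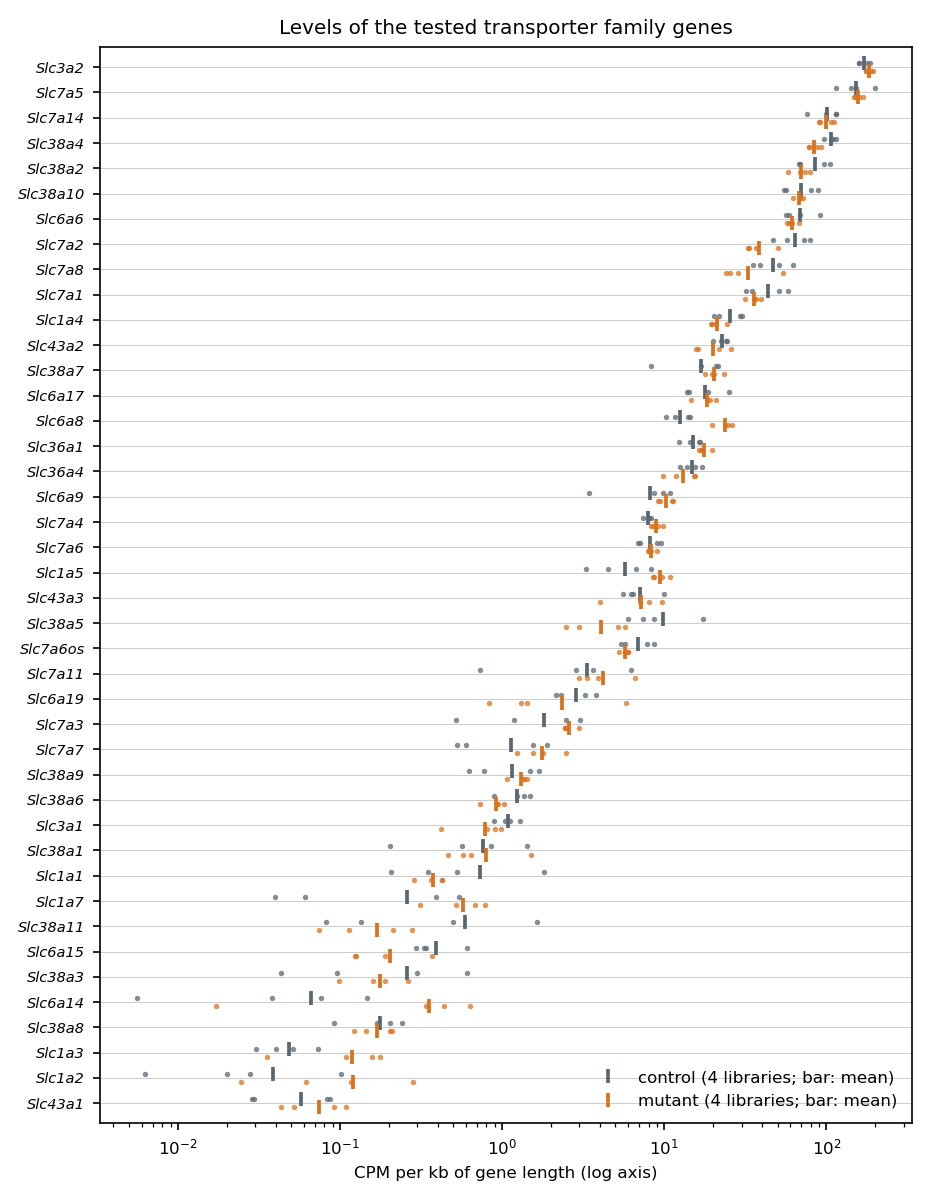
Level of the 42 tested members in CPM per kb of gene length on a log axis, with a point for each of 4 control (grey) and 4 mutant (orange) libraries and a bar at each group mean. *Slc3a2* and *Slc7a5* lie highest at 177 and 155 CPM per kb, *Slc43a1* lies lowest at 0.0654, and the grey and orange points of *Slc6a8* do not overlap.

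The other 23 members had too few counts to be tested. None exceeded 29 counts or 0.551 CPM in a library, 20 had no count in at least 1 library, and *Slc7a12* and *Slc36a1os* had none in any library. A count of 0 allows up to 0.0443 to 0.0778 CPM (3 counts of a TMM-scaled library, counting error only). Among them were most neurotransmitter carriers of the Slc6a family, such as *Slc6a2* for noradrenaline, *Slc6a3* for dopamine, *Slc6a4* for serotonin and *Slc6a5* for glycine, and the kidney carriers *Slc7a9*, *Slc7a13* and *Slc6a18*. Of 21 Slc6a members 7 were tested, against 11 of 11 Slc38a members. *Slc36a1os*, *Slc6a19os* and *Slc7a6os* match the symbols but are named for the opposite strand of a transporter and are not carriers themselves, and *Slc7a6os* was among those tested. Counting took no account of strand, and 7 of the 42 tested members overlap another gene by their coordinates, so that their counts may be affected. Among them were *Slc3a1* (with *Prepl*) and *Slc7a4* (with *P2rx6*).

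Across genotypes the transporter genes had no common direction. Of the 42 tested, 21 had a higher and 21 a lower mean in the mutants, and their median log2 fold change was 0.0035, beside 0.0015 over all 15233 genes tested. No member passed an adjusted p of 0.05 in edgeR's quasi-likelihood test with Benjamini-Hochberg adjustment, with or without a fold change above 2, and neither did any gene (0% of 15233). The paper does report genes past both thresholds, from its own comparison, which corrected for batches that are not named. At an unadjusted p under 0.05, 4 members were higher (*Slc6a8*, *Slc1a5*, *Slc1a3* and *Slc6a14*) and 3 were lower (*Slc7a2*, *Slc38a5* and *Slc38a4*), shares of 42 to be read beside 6.4% higher and 6.89% lower over all genes. In the 5 smaller libraries 8 members were higher and 7 lower, beside 12.7% and 10.6% of all genes. Without controls 2 and 3, 3 members were higher and 2 lower, beside 4.35% and 3.88% of all genes. DESeq2 put 2 members past an adjusted p of 0.05, *Slc6a8* and *Slc7a2*, beside 2.05% of all genes (1.23% with the fold change as well, none of them a member). Groups did not overlap for 4 members, with *Slc6a8* and *Slc1a5* above (4.4% of all genes) and *Slc38a5* and *Slc38a4* below (3.8%).

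**Figure D2:**
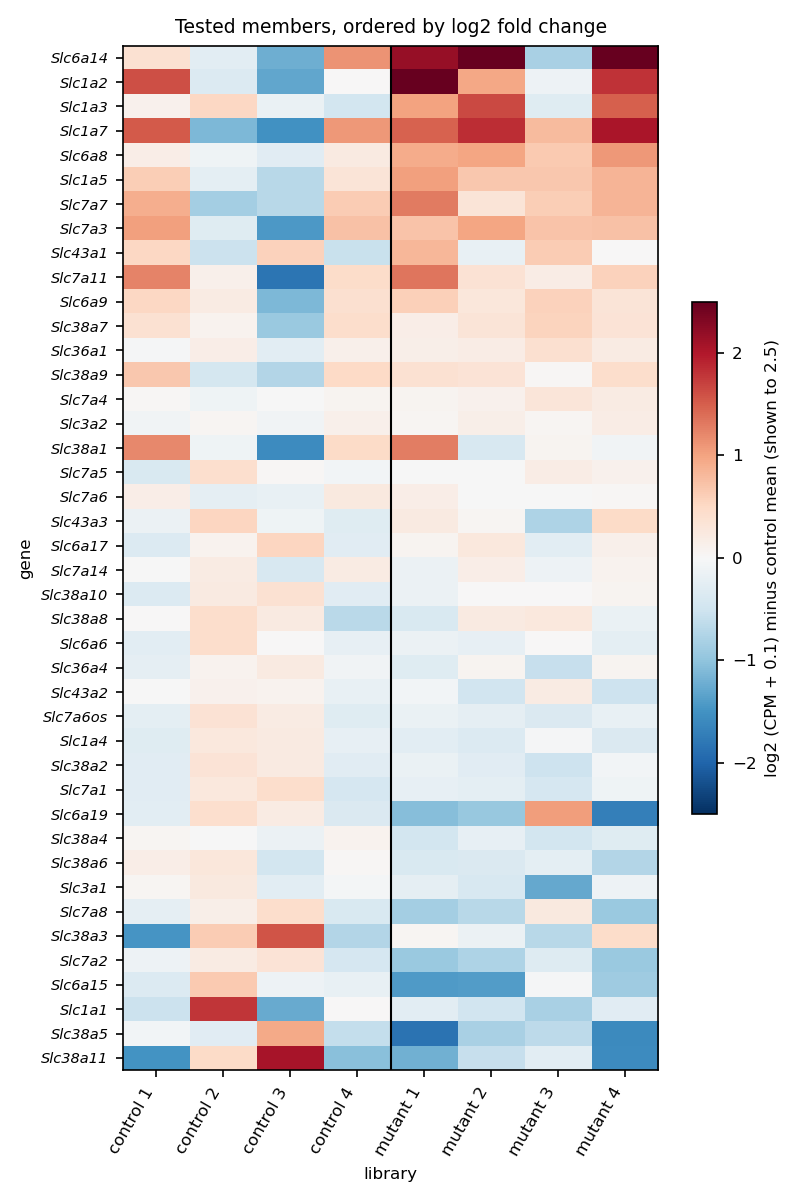
Level of the 42 tested members in each of 8 libraries as log2 (CPM + 0.1) minus the control mean, with colours limited to 2.5 either way and genes ordered by log2 fold change. Controls 2 and 3 often share a colour that the other controls lack, and *Slc6a8* is red in all 4 mutants.

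*Slc6a8*, which imports creatine with sodium and chloride, had the smallest p of all members. It lies on chromosome X of GRCm38 (chrX:73673133-73682500, plus strand). Controls 1 to 4 held 68.1, 56.6, 49.7 and 70.6 CPM, and mutants 1 to 4 held 115, 120, 96.0 and 128 CPM. All 4 mutants exceeded all 4 controls, and the lowest library of each group was the *Xist*-expressing one, control 3 and mutant 3. Means were 61.2 ± 9.8 CPM (SD, n = 4) in the controls and 115 ± 13.7 CPM (SD, n = 4) in the mutants, a log2 fold change of 0.91 (SE 0.14) or 1.88-fold. The unadjusted p was 0.000172 and the adjusted p 0.218 by edgeR's quasi-likelihood test, and the exact two-sided permutation p was 0.0286, the smallest that 4 against 4 allow. The adjusted p was 5.5e-05 by DESeq2, 0.0353 with a term for the libraries of over 50 M counts in edgeR (beside 0.046% of all genes past 0.05) and 0.0299 in the 5 smaller libraries (beside 0.135% of all genes), and in these 2 edgeR fits *Slc6a8* was the 1 member past the threshold. The log2 fold change was 0.80 in the 5 libraries and 0.73 without controls 2 and 3, where the adjusted p by edgeR was 0.39.

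None of the 5 other creatine genes tested passed an unadjusted p of 0.05 in edgeR over 8 libraries. *Gatm* and *Gamt*, which make creatine from arginine, glycine and a methyl group, differed by -0.08 (SE 0.15) and -1.35 (SE 0.60) on the log2 scale. *Gamt* was 0.545, 1.13, 3.0 and 0.453 CPM in controls 1 to 4 and 0.433 to 0.610 CPM in the mutants, so that its difference lay in controls 2 and 3, and it was 0.02 on the log2 scale in the 5 smaller libraries. Its unadjusted p was 0.0365 by DESeq2 over 8 libraries. *Ckb*, the brain-type creatine kinase, was 10.8, 38.9, 107 and 11.7 CPM in controls 1 to 4 and 19.8 to 23.4 CPM in mutants. All 4 mutants lay above controls 1 and 4 and below controls 2 and 3, which gave -0.95 (SE 0.67) on the log2 scale over 8 libraries and 0.93 in the 5 smaller ones, where the unadjusted p was 0.000166 and the adjusted p 0.0675 by edgeR's quasi-likelihood test. *Slc16a12*, a creatine exporter, had a log2 fold change of -0.39 (SE 0.24), which was -0.14 without control 2.

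Among the other Slc6a members, *Slc6a14*, a carrier of broad range for neutral and cationic amino acids, had the largest log2 fold change of all members. Controls 1 to 4 held 0.260, 0.130, 0.0190 and 0.501 CPM, and mutants 1 to 4 held 1.15, 1.49, 0.0591 and 2.16 CPM. Mutants 1, 2 and 4 were above every control, while mutant 3, with 4 counts, was below controls 1, 2 and 4. Control 3, with 1 count, and mutant 3 were the lowest of their groups and the *Xist*-expressing libraries. The log2 fold change was 2.43 (SE 1.04, adjusted p = 0.369 by edgeR's quasi-likelihood test), 2.05 in the 5 smaller libraries and 1.65 without controls 2 and 3. *Slc6a15*, which carries branched-chain amino acids and proline, was 1.06, 2.21, 1.24 and 1.19 CPM in controls and 0.452, 0.457, 1.34 and 0.688 CPM in mutants, with mutant 3 within the range of the controls. It differed by -0.94 on the log2 scale (SE 0.44, adjusted p = 0.389 by the same test), -1.08 in the 5 smaller libraries, -0.60 without controls 2 and 3 and -1.42 without mutant 3. *Slc6a6*, the taurine transporter and the most abundant of the family, was 386 to 630 CPM in controls and 393 to 463 CPM in mutants, and its log2 fold change of -0.17 (SE 0.17) turned to 0.03 in the 5 smaller libraries.

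*Slc38a5*, on the X chromosome at chrX:8271381-8280176 (plus strand), was lower in the mutants. Controls 1 to 4 held 18.2, 15.5, 36.5 and 12.6 CPM, and mutants 1 to 4 held 5.20, 10.8, 11.99 and 6.21 CPM. All 4 mutants fell short of all 4 controls by a narrow margin, with mutant 3 next to control 4, and control 3 was the highest library. The *Xist*-expressing library was the highest of each group. Means were 20.7 ± 10.8 CPM and 8.56 ± 3.35 CPM (SD, n = 4 each), which differed by -1.27 (SE 0.40) on the log2 scale, with an adjusted p of 0.353 by edgeR's quasi-likelihood test and 0.0654 by DESeq2. The exact two-sided permutation p was 0.0286. The log2 fold change was -1.06 in the 5 smaller libraries (adjusted p = 0.157 by the same edgeR test), -0.85 without control 3 and -0.84 without controls 2 and 3. Over the 8 leave-one-out fits it ranged from -1.48 to -0.85.

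Over 8 libraries, markers of α-cells were lower beside *Slc38a5*. Of 8 α-cell markers 6 were lower at an unadjusted p under 0.05 and none higher, beside 6.89% and 6.4% of all genes. Among the 5 smaller libraries 3 were lower and 1 higher at that p, beside 10.6% and 12.7% of all genes. The higher marker was *Gc*, with 0.67 on the log2 scale there and -0.02 over 8 libraries. The median of the list was -1.06 on the log2 scale over 8 libraries and -0.54 in the 5 smaller ones. Their summed level, most of it glucagon mRNA, was 19430 to 93127 CPM in controls and 10661 to 20365 CPM in mutants, and control 3 had the highest value as it had for *Slc38a5*. *Gcg*, the glucagon gene, had a log2 fold change of -1.59 over 8 libraries and -0.58 in the 5 smaller ones, against -1.27 and -1.06 for *Slc38a5*. The part of α-cell content in the *Slc38a5* result was not tested, and in whole islets fewer cells of a type and less RNA per cell cannot be told apart.

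**Figure D3:**
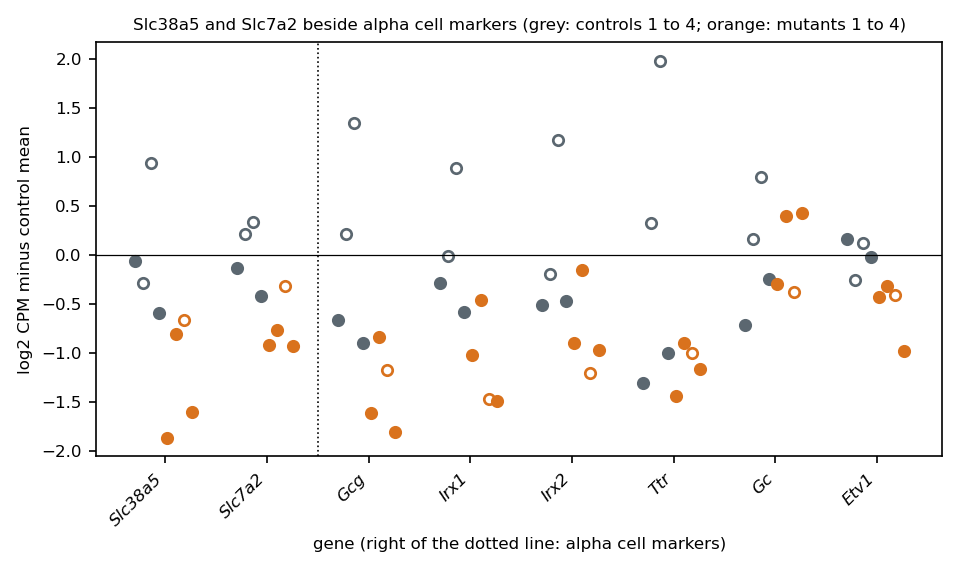
*Slc38a5* and *Slc7a2* beside 6 α-cell markers, as log2 CPM minus the control mean for controls 1 to 4 (grey) and mutants 1 to 4 (orange), with open points for libraries of over 50 M counts. All 4 mutants lie below all 4 controls for *Slc38a5*, and control 3 lies highest for *Slc38a5* and *Gcg*.

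*Slc38a4*, the Slc38a member of highest mean CPM and a system A carrier of neutral amino acids, had tighter libraries. Controls 1 to 4 held 455, 441, 401 and 472 CPM, and mutants 1 to 4 held 322, 382, 323 and 360 CPM. Every mutant was below every control. The log2 fold change was -0.35 (SE 0.11, adjusted p = 0.353 by edgeR's quasi-likelihood test, 0.0563 by DESeq2), and -0.39 in the 5 smaller libraries and -0.42 without controls 2 and 3. *Slc38a6* had a log2 fold change of -0.45 (SE 0.21) and -0.58 in the 5 smaller libraries. All 11 tested members of the family had a median log2 fold change of -0.28, with 3 higher and 8 lower means.

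*Slc7a2*, a carrier of arginine, lysine and ornithine (chr8:40862367-40922070, plus strand), was the second member past an adjusted p of 0.05 in DESeq2. Controls 1 to 4 held 451, 571, 623 and 369 CPM, and mutants 1 to 4 held 260, 291, 396 and 258 CPM. Controls 2 and 3 were the highest and mutants 1, 2 and 4 the lowest, while mutant 3 lay above control 4. The log2 fold change was -0.74 (SE 0.21, adjusted p = 0.353 by edgeR's quasi-likelihood test and 0.0494 by DESeq2). It was -0.61 in the 5 smaller libraries (adjusted p = 0.0803 by that edgeR test) and -0.44 without controls 2 and 3. Control 3 was highest for the α-cell markers too, and their part in this result was not tested.

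The remaining Slc7a members and their heavy chains did not pass an unadjusted p of 0.05 in edgeR over 8 libraries. *Slc7a8*, the light chain of a broad neutral amino acid exchanger, stood at 192, 251, 307 and 174 CPM across controls 1 to 4 and at 125, 140, 268 and 119 CPM across mutants 1 to 4. Mutants 1, 2 and 4 were below every control and mutant 3 was within their range. It differed by -0.50 on the log2 scale (SE 0.30, adjusted p = 0.457 by edgeR's quasi-likelihood test), -0.52 in the 5 smaller libraries (unadjusted p = 0.00124 by that edgeR test, adjusted p = 0.0789) and -0.17 without controls 2 and 3. Over the fits that left out a library it ranged from -0.85 (without mutant 3) to -0.34. *Slc3a2* was 471 to 550 CPM in controls and 517 to 568 CPM in mutants, a log2 fold change of 0.10 (SE 0.11). *Slc3a1*, the heavy chain of the cystine transporter of kidney, was at 2.03 to 2.95 CPM and 0.960 to 2.25 CPM, with -0.48 (SE 0.31), -0.27 in the 5 smaller libraries and leave-one-out values of -0.61 to -0.27 (without mutant 3). *Slc7a4*, for which no transport is established, had 0.18 (SE 0.10), and *Slc7a14* had -0.02 (SE 0.17).

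*Slc1a5*, an exchanger of glutamine and other small neutral amino acids (chr7:16781346-16798274, plus strand), was higher in every mutant. Controls 1 to 4 held 22.7, 12.4, 9.08 and 18.4 CPM, and mutants 1 to 4 held 29.9, 23.7, 23.5 and 26.7 CPM. The lowest mutant exceeded the highest control by less than the spread within either group, and controls 2 and 3 were the lowest of all 8. The log2 fold change was 0.73 (SE 0.27, adjusted p = 0.353 by edgeR's quasi-likelihood test) and the exact permutation p was 0.0286. It was 0.38 in the 5 smaller libraries and 0.33 without controls 2 and 3.

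The glutamate carriers of the same family were scarce and uneven. *Slc1a3* stood at 0.363, 0.520, 0.285 and 0.215 CPM across controls 1 to 4 and at 0.769, 1.25, 0.251 and 1.11 CPM across mutants 1 to 4. Mutants 1, 2 and 4 were above every control and mutant 3 was not. It differed by 1.27 on the log2 scale (SE 0.53, adjusted p = 0.363 by edgeR's quasi-likelihood test) and 1.84 in the 5 smaller libraries. *Slc1a2* was 0.0760 to 1.22 CPM in controls and 0.295 to 3.39 CPM in mutants, with a log2 fold change of 1.65 (SE 0.93) and leave-one-out values of 0.81 to 2.74. *Slc1a4*, a carrier of serine and alanine that holds the response core in its promoter, was 79.9 to 118 CPM in controls and 75.9 to 95.7 CPM in mutants, with -0.27 (SE 0.16). Markers of fibroblasts, stellate cells and pericytes were higher in the mutants beside these genes, 7 of 9 at an unadjusted p under 0.05, beside 6.4% of all genes. Their summed levels were 330 to 485 CPM in controls and 676 to 897 CPM in mutants. Mutant 3, the lowest mutant for *Slc1a3* and *Slc6a14*, had a sum of 827 CPM. Duct markers summed to 304 to 1609 CPM in controls and 1060 to 2944 CPM in mutants. Control 3 and mutant 3 had the lowest duct sums of their groups. The part of either marker list in the results of *Slc1a3* and *Slc6a14* was not tested.

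**Figure D4:**
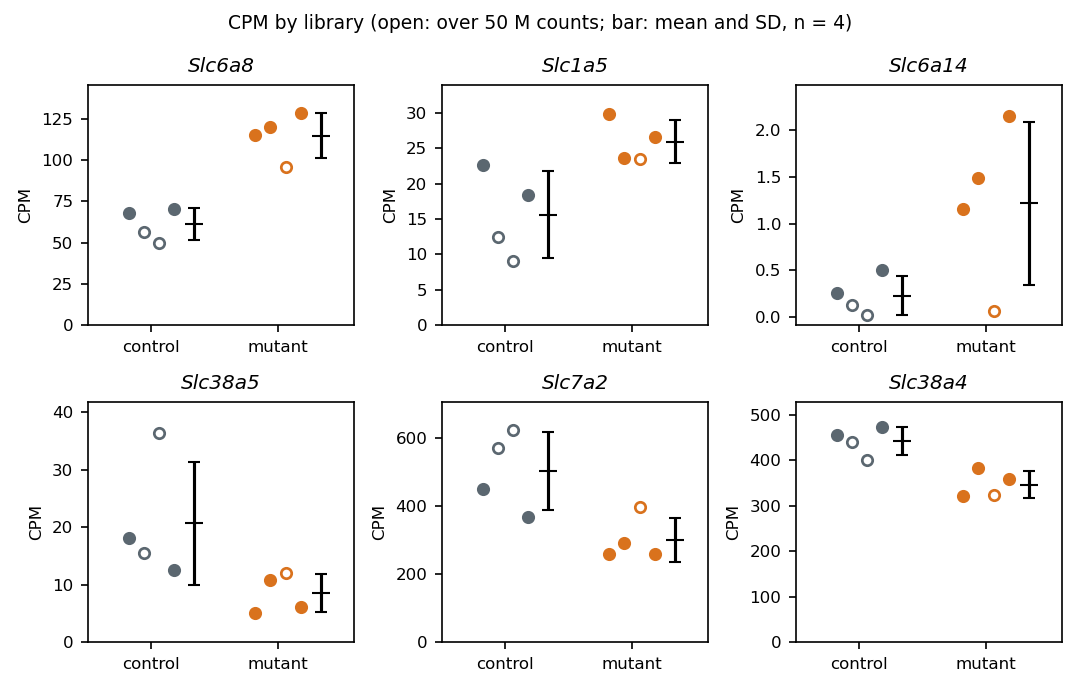
CPM of *Slc6a8*, *Slc1a5*, *Slc6a14*, *Slc38a5*, *Slc7a2* and *Slc38a4* in each control (grey) and mutant (orange) library, with the mean and SD (n = 4) and open points for libraries of over 50 M counts. The groups do not overlap for *Slc6a8*, *Slc1a5*, *Slc38a5* and *Slc38a4*, and mutant 3 lies with the controls for *Slc6a14* and among them for *Slc7a2*.

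Carriers of the lysosome and of large neutral amino acids did not pass an unadjusted p of 0.05 in edgeR over 8 libraries either. *Slc36a1*, which moves amino acids out of the lysosome with protons, was 66.3 to 89.9 CPM in controls and 88.4 to 106 CPM in mutants, a log2 fold change of 0.23 (SE 0.12). *Slc36a4* had -0.17 (SE 0.18) and 0.10 in the 5 smaller libraries. *Slc43a1* and *Slc43a2*, which carry branched-chain and aromatic amino acids, had 0.38 (SE 0.52) and -0.19 (SE 0.18), and *Slc43a3*, a purine nucleobase carrier, had 0.03 (SE 0.28). In the 5 smaller libraries *Slc43a3* had 0.48 with an unadjusted p of 0.0168 by edgeR's quasi-likelihood test (adjusted p = 0.143).

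The 20 tested members outside the naming rule had log2 fold changes of -1.78 to 1.16 with a lowest unadjusted p of 0.0826 in edgeR over 8 libraries. A few of them, chosen after their values were seen, are given as examples and do not stand for the rest. *Slc7a5*, the leucine-carrying partner of *Slc3a2*, ranged from 409 to 709 CPM among controls and from 529 to 600.5 CPM among mutants (0.04, SE 0.17, on the log2 scale). *Slc7a11*, the cystine and glutamate exchanger that holds 2 response cores, was at 69.7, 31.9, 8.21 and 40.6 CPM in the controls and between 33.4 and 74.2 CPM in the mutants. Control 3 was its lowest library by far, and controls 2 and 3 were below all the others. *Slc38a3*, a glutamine carrier of liver and kidney, stood at 0.130, 0.891, 1.81 and 0.286 CPM in the controls and at 0.295 to 0.783 CPM in the mutants, and its difference was -0.57 on the log2 scale over 8 libraries and 1.52 in the 5 smaller ones. *Slc38a11* was highest in control 3 at 2.62 CPM and was at most 0.443 CPM in the mutants. *Slc6a19*, the neutral amino acid carrier of gut and kidney, was 14.0 CPM in mutant 3, above every control, and 2.02 to 3.47 CPM in the other mutants, below every control. *Slc6a17*, a vesicular carrier of neutral amino acids, and *Slc38a10* differed by 0.02 and -0.05 over 8 libraries and by 0.47 and 0.28 in the 5 smaller ones. In those 5 libraries the unadjusted p by edgeR's quasi-likelihood test was 0.000798 for *Slc6a17* (adjusted p = 0.0739), 0.0136 for *Slc6a19*, 0.0138 for *Slc38a10* and 0.0222 for *Slc38a3*.

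Controls 2 and 3 stood apart for many members. For 10 tested members both of these controls were above the other 6 libraries and for 12 both were below, together 52.4% of 42, beside 41.4% of all genes. Among those above were *Slc7a2*, *Slc6a6* and *Slc1a4*, and among those below were *Slc6a8*, *Slc1a5* and *Slc7a4*. Acinar, β-cell and α-cell markers had higher sums in the same controls. For α-cell markers the sums were 41820 and 93127 CPM there and 10661 to 22638 CPM in the other libraries. The part of these markers in these members' results was not tested.

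**Figure D5:**
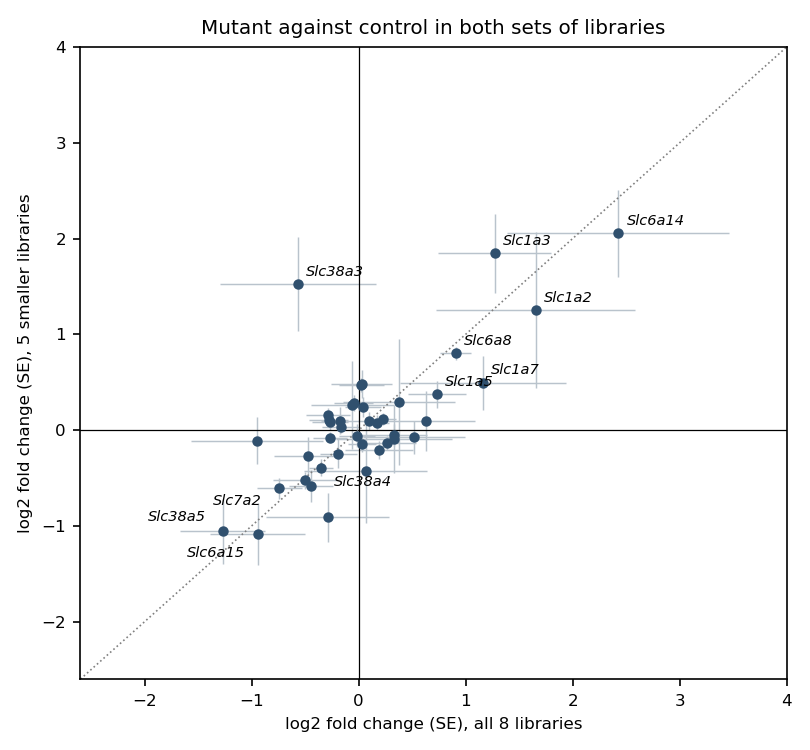
Log2 fold change (points, bars SE) of 41 members over all 8 libraries against that in the 5 libraries of under 50 M counts, with a dotted line of equality. *Slc6a8* lies near the line at 0.91 and 0.80 and *Slc38a5* near it at -1.27 and -1.06, and members near 0 lie on either side.

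Of 91 tested genes of 6 lists that make, carry, sense or use amino acids, 8 were higher and 11 lower at an unadjusted p under 0.05, beside 6.4% and 6.89% of all genes, and 15 and 11 of 93 in the 5 smaller libraries, beside 12.7% and 10.6%. None passed the adjusted p in edgeR over 8 libraries. In the list of ATF4 targets, which rise when amino acids are short, 15 of 20 genes had a higher mean, and 3 were higher and 2 lower at an unadjusted p under 0.05. Among the 5 smaller libraries 6 of the list were higher and 1 lower at that p, beside 12.7% and 10.6% of all genes. The median log2 fold change of that list was 0.27 over 8 libraries and 0.058 in the 5 smaller ones. *Asns*, the asparagine synthetase, had a log2 fold change of 0.10 (SE 0.14) and *Atf4* itself -0.28 (SE 0.25). In the 5 smaller libraries *Atf4* had 0.22, with an unadjusted p of 0.0177 by edgeR's quasi-likelihood test (adjusted p = 0.145). *Ddit4*, a stress-induced inhibitor of mTORC1, stood at 62.5, 59.4, 68.3 and 81.1 CPM across controls 1 to 4 and at 125, 142, 63.1 and 174 CPM across mutants 1 to 4, a log2 fold change of 0.90 (SE 0.28). Mutants 1, 2 and 4 were above every control, and mutant 3 was not. *Atf5* had 0.60 (SE 0.23) and *Sesn2*, a leucine sensor, -0.40 (SE 0.16), which were 0.19 and -0.19 in the 5 smaller libraries.

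In the list of glutamate and GABA metabolism 3 of 11 genes were higher and 3 lower at an unadjusted p under 0.05. These counts stand beside 6.4% and 6.89% of all genes. Among the 5 smaller libraries 2 of the list were higher and 2 lower, beside 12.7% and 10.6% of all genes. *Gpt2* and *Gpt*, the mitochondrial and cytosolic alanine aminotransferases, differed in opposite directions, each with an adjusted p of 0.353 by edgeR's quasi-likelihood test. *Gpt2* was 45.3 to 53.0 CPM in controls and 53.7 to 77.7 CPM in mutants, with 0.49 (SE 0.13). *Gpt* was 5.53 to 10.7 CPM in controls and 4.0 to 4.88 CPM in mutants, with -0.85 (SE 0.23) and an adjusted p of 0.0343 by DESeq2. Its log2 fold change was -0.49 in the 5 smaller libraries and -0.51 without controls 2 and 3. *Gad1*, which makes GABA from glutamate, had -0.89 (SE 0.27) and -0.28 in the 5 smaller libraries.

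Of 16 other amino acid and peptide carriers none was higher and 2 were lower at an unadjusted p under 0.05. These counts stand beside 6.4% and 6.89% of all genes. Among the 5 smaller libraries 3 of the list were higher and 1 lower, beside 12.7% and 10.6% of all genes. *Slc16a10*, which carries aromatic amino acids, was 223 to 365 CPM in controls and 147 to 220 CPM in mutants, with no overlap. Its log2 fold change was -0.67 (SE 0.19), -0.50 in the 5 smaller libraries and -0.37 without controls 2 and 3. *Slc18a2*, the vesicular monoamine transporter, had -1.91 (SE 0.80), and *Slc25a13*, the mitochondrial aspartate and glutamate carrier, had 0.62 (SE 0.30). In the 5 smaller libraries these were -0.68 and 0.23, and without controls 2 and 3 they were -0.77 and 0.20. Of 22 genes that signal amino acids to mTORC1, *Lamtor5* was higher at that p with 0.32 (SE 0.12) and *Sesn1* lower with -0.76 (SE 0.29). *Lamtor4* had 0.34 (SE 0.16). Among the 5 smaller libraries 1 of the list was higher and 4 lower at that p. *Sesn1* and *Lamtor4* had -0.20 and 0.08 in the 5 smaller libraries, and *Sesn1* had -0.11 without controls 2 and 3. Of 17 genes of amino acid breakdown, *Bcat1*, which transaminates branched-chain amino acids, was higher with 1.07 (SE 0.36), and 3 were lower, among them *Th* of dopamine synthesis with -1.51 (SE 0.57) and *Gldc* of glycine cleavage with -1.17 (SE 0.43). In the 5 smaller libraries *Th* and *Gldc* had -0.40 and -0.16, and 2 of the list were higher and 3 lower at an unadjusted p under 0.05.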

How the data were processed

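RNA from mouse islets was measured in 4 control and 4 mutant libraries. The authors trimmed 50-base single-end reads of ribosome-depleted RNA with Trimmomatic and FASTP, aligned them to mm10 (GRCm38) with STAR, and deposited raw counts per gene from featureCounts at default settings, with gene coordinates and lengths. They also deposited their own comparison (CPM, fold changes, F, p-values and FDR), which was not used. Members followed from their symbols. The members, gene lists and markers were chosen with earlier results of these data known.

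Everything else was computed here from the deposited counts in R 4.3.3. Of 24091 genes, 15233 passed edgeR's low count filter and entered quasi-likelihood fits in edgeR 4.0.16 on TMM-scaled libraries, with genotype as the only term, since the batches that the authors corrected are not named, and with Benjamini-Hochberg adjustment over all genes. Genes were called at an adjusted p under 0.05 and a fold change over 2. CPM values use TMM factors, a fold change compares mutant with control, and its SE was taken as its size over the root of the F statistic. CPM values of single genes were set against each other by an exact permutation test, two-sided. Members named were *Slc38a5*, *Slc6a8*, members called or not overlapping between groups, and in each family the most abundant and the 3 of smallest p, with *Slc3a1* and *Slc3a2*. In each of 6 lists of other amino acid genes the 3 of smallest p were named, with *Gatm*, *Gamt*, *Ckb*, *Asns* and *Atf4*. DESeq2 1.42.0, other scaling and filters, a term for the 3 libraries of over 50 M counts, the replicate number as a block, the 5 smaller libraries and leaving out each library were tried. Every pair of libraries differed beyond sampling noise (chi-square over genes), so each was counted once. The tests were also run on simulated counts with changes planted in 200 genes. Those counts held no shift of controls 2 and 3, so that check does not cover it. Depth limits the scarce members, where a few counts decide a value. Single-gene results of some genes are left out, and the imaging experiments were not analysed here.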

Additional observations from a re-analysis of the deposited data

Results flagged for a closer look

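Groups of 4 libraries were examined for the 42 tested members and the 21 named genes of the other lists. In 7 of 126 groups a library's gap to its nearest neighbour, as a share of the range, exceeded Dixon's critical value at 95%, where chance gives about 1 in 20. *Slc6a15* was 2.21 CPM in control 2, with a gap of 0.850 of the range, and *Slc16a12* was 216 CPM there, with a gap of 0.893. Mutant 3 stood off for *Slc6a19* at 14.0 CPM (0.879 of the range), *Slc7a8* at 268 CPM (0.858), *Atf5* at 607 CPM (0.964) and *Lamtor4* at 31.0 CPM (0.879). *Slc7a3*, an arginine and lysine carrier, was 7.19 CPM in mutant 2, with a gap of 0.936 of the range.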

How the results depend on the processing

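No member or gene was called in any of the 8 fits that left out a library. Members past the adjusted p alone numbered 2 with DESeq2, 1 with the library set term and 1 in the 5 smaller libraries, beside 312, 7 and 21 of all genes. With the fold change as well, 187, 4 and 10 genes were called in these fits, 0 of them members. Members higher at an unadjusted p numbered 2 with at least 1 CPM in 4 libraries and 8 in the 5 smaller ones, and members lower numbered 5 with the set term and 7 in the 5 smaller ones. In the 5 smaller libraries 12.7% of all genes were higher and 10.6% lower at that p. Such shares are not given for the stricter filter, the set term or the fits that left out a library. Member counts of those fits therefore cannot be set against all genes. Leaving out a library gave 1 (without mutant 1) to 4 higher, with 2 without control 2, control 3, mutant 2 or mutant 4, and 3 to 7 lower (7 without mutant 3, 5 without control 1 or control 3). With total counts only, the members' median was 0.14 and that of all genes 0.15. Of all tested members, only 26 of 41 kept the sign of their log2 fold change in the 5 smaller libraries. Without controls 2 and 3, 25 of 42 kept it. Among the named genes alone, the sign turned for *Slc36a4* (0.00018), *Slc6a6* (0.0093), *Slc7a14* (0.12) and *Gatm* (0.056) with total counts only. It turned for *Slc36a4* (0.10), *Slc6a6* (0.034), *Atf4* (0.22), *Ckb* (0.93) and *Gamt* (0.018) in the 5 smaller libraries. Without controls 2 and 3 it turned for *Slc1a4* (0.0042), *Slc6a6* (0.089), *Atf4* (0.25), *Ckb* (0.96) and *Gamt* (0.017). With the set term it turned for *Slc43a3* (-0.026) and *Ckb* (0.11). Over single libraries left out, *Slc43a3* ranged from -0.14 to 0.24, *Slc6a6* from -0.25 to 0.0016, *Slc7a14* from -0.13 to 0.050, *Ckb* from -1.26 to 0.090 (without control 3) and *Gatm* from -0.17 to 0.021. The causes were not tested. Same-numbered libraries correlated at 0.42, -0.01, 0.46 and 0.25 in their deviations, and control 2 correlated best with mutant 4 and the other controls best with their own number. Not every pair was over 0.1, so the numbers were not taken to pair the samples. With the replicate block 6 members were higher and 4 lower at an unadjusted p under 0.05, a fit for which the share of all genes is not given. In that fit 0 members and 0 genes were called, and *Slc43a3* was at -0.0061.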
